A study of Mus musculus with 8 samples.

Results

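Matrix metalloproteases (MMP), the ADAM and ADAMTS proteases, the ADAMTS-like proteins and the tissue inhibitors of metalloproteases (TIMP) were examined in adipose-derived stem cells of mouse white fat. Members were taken from the gene table by symbol, and 70 of its 17968 entries belonged to these families. They comprised 4 TIMP genes, 14 secreted MMP genes, 6 membrane-type MMP genes, 22 ADAM genes, 19 ADAMTS genes and 5 ADAMTS-like genes. Mmp23 was counted among the secreted MMPs here and below, although its propeptide carries a membrane anchor. The extended zinc-binding motif of the metzincin proteases, with a glycine before its last histidine, was found in all 20 MMP genes and in 15 of the 22 ADAM genes, and the ADAM genes were split by it into 15 with and 7 without. This form of the motif was found in 13 of 19 ADAMTS genes and in none of the 5 ADAMTS-like and 4 TIMP genes, and a missing match says only that these letters were not in the longest reading frame.

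As background, MMPs are made as inactive precursors and cut collagens, gelatin and other matrix proteins once their propeptide is removed. ADAM proteins sit in the cell membrane and release the outer parts of growth factors and receptors, whereas ADAMTS proteins are secreted and cut procollagens and proteoglycans. TIMPs block these enzymes by binding their active site, and remodelling of the matrix by MMPs accompanies the growth of fat tissue.

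RNA was sequenced in bulk from cells of 3 depots, 2 libraries each. SWAT is the subcutaneous fat of the groin (inguinal), EWAT the fat along the epididymis (epididymal) and NWAT the fat around the kidney (perirenal). All came from male C57BL/6J wild type mice on a chow diet, whose age the labels do not give. The fat was digested with type II collagenase at 1 mg per ml for 45 min and the cells were sorted by flow cytometry with antibodies whose targets the labels do not name. Mesenteric fat, the fourth depot of the series, is not analysed here.

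Library totals lay between 20026413 and 20638724 estimated counts. The labels do not state that libraries of 1 depot stem from different mice, so the p-values reflect the spread of these samples alone and that spread may be technical. All 8 adipose stem cell markers examined were present. CPM is the count relative to a library size scaled by edgeR's TMM factors. The 8 markers summed to 14547 and 14839 CPM in SWAT, 20294 and 20979 CPM in EWAT and 14528 and 15653 CPM in NWAT. Most of this sum was Dcn, with 8190 and 8593 CPM in SWAT, 14964 and 15321 CPM in EWAT and 8754 and 9646 CPM in NWAT. Of the 8, 3 were higher and 2 lower in SWAT against EWAT. Thy1 had 509 and 471 CPM in SWAT, 162 and 181 CPM in EWAT and 287 and 261 CPM in NWAT. Of the 10 marker lists of other cell types, red blood cell genes summed to 220 CPM in NWAT replicate 2. In the other libraries they summed to between 7.68 and 18.5 CPM. Endothelial genes summed to 282 and 244 CPM in SWAT, 235 and 202 CPM in EWAT and 368 and 347 CPM in NWAT. Most of this sum was Tek, with 260 and 223 CPM in SWAT, 219 and 178 CPM in EWAT and 355 and 334 CPM in NWAT. The other endothelial genes had at most 8.63 CPM in any library.

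The families differed widely among depots. Of the 70 members, 56 had enough counts to be tested, and 36 of them (64.3%) differed among depots in a joint test, against 41.7% of all 13694 genes tested. Every test was edgeR's quasi-likelihood test, and a call means an adjusted p (Benjamini-Hochberg) under 0.05. In SWAT against EWAT, 15 members were higher and 14 lower (51.8% in all, against 36.7% of all genes). In SWAT against NWAT, 12 were higher and 11 lower (41.1% against 18.9%), and in EWAT against NWAT, 12 were higher and 14 lower (46.4% against 27.3%). Higher and lower calls made up 18.0% and 18.7% of all genes in SWAT against EWAT, 9.07% and 9.83% in SWAT against NWAT, and 13.3% and 14.0% in EWAT against NWAT. With 2 libraries a depot, non-overlapping libraries were common, at 69.9% of all genes in SWAT against EWAT, 63.1% in SWAT against NWAT and 65.5% in EWAT against NWAT, so a lack of overlap is given for the members below as a description. The median absolute log2 fold change of the members was 0.62 in SWAT against EWAT, 0.42 in SWAT against NWAT and 0.44 in EWAT against NWAT, beside 0.32, 0.22 and 0.27 over all genes. Signed medians of the members were near 0, at -0.12, 0.04 and -0.17 in the same order, beside -0.01, -0.02 and 0.01 over all genes. The filter on low counts kept members that were high in 1 depot only, so these shares describe the tested members and not the families as a whole. Without TMM, scaled to library size only, the median of all genes moved by -0.24 in SWAT against EWAT and by -0.19 in SWAT against NWAT, and the members then split into 13 higher and 25 lower in SWAT against EWAT and 9 higher and 14 lower in SWAT against NWAT. In bulk RNA, fewer cells of a type and less RNA per cell cannot be told apart, and this holds for every difference below.

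**Figure D1:**
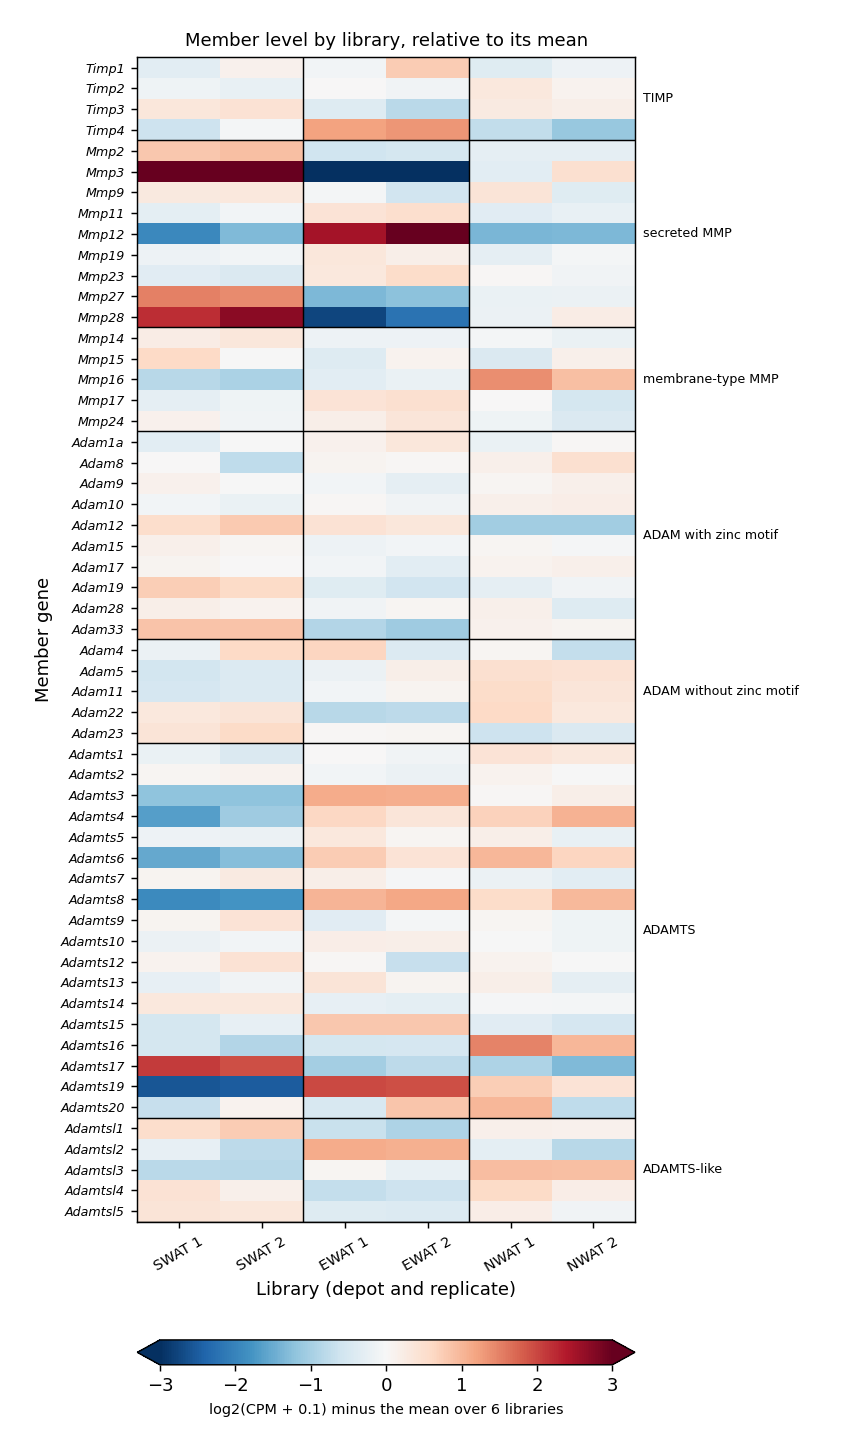
Level of each of the 56 tested members (down the page, by group) in the 6 libraries (across), as log2(CPM + 0.1) minus the gene's mean over the libraries, with red above and blue below that mean. Mmp3, Mmp27, Mmp28 and Adamts17 were red in both SWAT libraries, and Adamts3, Adamts4, Adamts6, Adamts8 and Adamts19 were blue there.

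Among the inhibitors, Timp3 was lower in EWAT than in both other depots, and Timp4, at trace level, was higher there. Of the 4 TIMP genes, 1 was higher and 1 lower in SWAT against EWAT, none passed in SWAT against NWAT, and 1 was higher and 1 lower in EWAT against NWAT. Timp3, whose product binds to the matrix and also inhibits ADAM and ADAMTS proteases, had 1172 and 1253 CPM in SWAT, 709 and 530 CPM in EWAT and 1124 and 1045 CPM in NWAT. Both EWAT libraries lay below the other 4, and SWAT stood above NWAT. The log2 fold change was 0.97 ± 0.14 in SWAT over EWAT (SE, here and below; edgeR adjusted p = 0.000323), -0.81 ± 0.14 in EWAT over NWAT (edgeR adjusted p = 0.00156) and 0.16 ± 0.14 in SWAT over NWAT (edgeR adjusted p = 0.498). Timp3 lies within Syn3 on chromosome 10 and the strand setting of the counting is not given, but Syn3 had at most 3.68 CPM in any library.

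Timp2, whose product inhibits MMPs and helps Mmp14 to activate the precursor of Mmp2, was the most abundant member, with 4552 and 4267 CPM in SWAT, 5000 and 4620 CPM in EWAT and 6147 and 5273 CPM in NWAT. SWAT lay lowest and NWAT highest with no overlap between depots, but the log2 fold changes of -0.13 ± 0.13 in SWAT over EWAT, -0.37 ± 0.13 in SWAT over NWAT (edgeR adjusted p = 0.0662) and -0.25 ± 0.13 in EWAT over NWAT did not pass. Scaled to library size only, it passed in SWAT over NWAT at -0.57 and in SWAT over EWAT at -0.36. In SWAT over NWAT it also passed in DESeq2 at -0.36, with a replicate block at -0.37 and without EWAT replicate 1 at -0.37. Timp1, a secreted inhibitor of most MMPs, had 14.97 and 20.4 CPM in SWAT, 17.7 and 31.8 CPM in EWAT and 14.4 and 16.8 CPM in NWAT. The second EWAT library stood above the other 5, and no pair passed. Without EWAT replicate 1, whose level was the lower of the EWAT pair, Timp1 passed at -0.85 in SWAT over EWAT and at 1.03 in EWAT over NWAT. With a replicate block it passed at -0.46 and 0.62 in these pairs, and in DESeq2 at 0.66 in EWAT over NWAT.

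Timp4, a TIMP of restricted tissue expression, had 0.110 and 0.211 CPM in SWAT, 0.654 and 0.719 CPM in EWAT and 0.0954 and 0.0485 CPM in NWAT. EWAT lay above both other depots without overlap. The 30 counts over the EWAT libraries against 3 over the NWAT libraries gave a ratio of 9.52 (exact 95% interval 2.96 to 48.7, counting error only), and SWAT over EWAT stood at a log2 fold change of -2.05 ± 0.62 (edgeR adjusted p = 0.0235). The difference from SWAT was lost in DESeq2, at -2.08, and when either library of SWAT or of EWAT was left out, at -2.58 to -1.67. That from NWAT was lost without NWAT replicate 2 (2.77). Syn2, which overlaps Timp4, had 0.0970 to 0.422 CPM.

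Secreted MMPs included Mmp3, which differed by 7.12 (log2) in SWAT over EWAT. Their median absolute log2 fold change was 1.41 in SWAT against EWAT, 0.72 in SWAT against NWAT and 0.74 in EWAT against NWAT. Of 9 tested, 8 passed the joint test (88.9%, against 41.7% of all genes). In SWAT against EWAT 4 were higher and 4 lower, and in SWAT against NWAT 4 were higher and none lower. In EWAT against NWAT 4 were higher and 3 lower. Shares called were 88.9%, 44.4% and 77.8% in these pairs, against 36.7%, 18.9% and 27.3% of all genes. Mmp2, Mmp3, Mmp27 and Mmp28 were higher in SWAT than in both other depots, and Mmp11, Mmp12, Mmp19 and Mmp23 were lower in SWAT than in EWAT.

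Mmp2, gelatinase A, had 2906 and 3105 CPM in SWAT, 1101 and 1156 CPM in EWAT and 1379 and 1377 CPM in NWAT. Both SWAT libraries lay far above the rest and EWAT lay lowest, with no overlap. The log2 fold change was 1.41 ± 0.12 in SWAT over EWAT (edgeR adjusted p = 2.85e-06), 1.13 ± 0.12 in SWAT over NWAT (edgeR adjusted p = 3.56e-05) and -0.29 ± 0.12 in EWAT over NWAT (edgeR adjusted p = 0.0862). DESeq2 called the last of these, at -0.29. The gene lies on chromosome 8 at 92827290 to 92853421 of GRCm38.p6.

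Mmp3, stromelysin 1, which cuts proteoglycans and basement membrane proteins and activates other MMPs, had 653 and 717 CPM in SWAT, 5.00 and 4.81 CPM in EWAT and 48.6 and 83.3 CPM in NWAT. The depots were widely apart in the order SWAT, NWAT, EWAT. Its log2 fold changes of 7.12 ± 0.28 in SWAT over EWAT (edgeR adjusted p = 1.06e-07), 3.38 ± 0.22 in SWAT over NWAT (edgeR adjusted p = 9.33e-06) and -3.75 ± 0.26 in EWAT over NWAT (edgeR adjusted p = 8.27e-06) were the largest among the members with at least 10 CPM in some depot. Mmp27, a little-studied MMP, had 45.2 and 42.3 CPM in SWAT, 6.16 and 6.65 CPM in EWAT and 13.7 and 13.9 CPM in NWAT. It had the same order of depots as Mmp3 in a narrower range, with log2 fold changes of 2.77 ± 0.12, 1.67 ± 0.11 and -1.10 ± 0.12 in SWAT over EWAT, SWAT over NWAT and EWAT over NWAT (edgeR adjusted p = 1.3e-08, 1.36e-06 and 4.88e-05).

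Both genes are among 7 MMP genes of the table that follow each other on chromosome 9, in the order Mmp12, Mmp1b, Mmp3, Mmp1a, Mmp10, Mmp8 and Mmp27, with 0 other coding genes between neighbours. Mmp12 (macrophage elastase), the farthest of the 7 from Mmp27, was close to absent outside EWAT and is given here because of its place beside them, chosen after its values were seen. It had 0 and 0.0527 CPM in SWAT, 2.05 and 4.13 CPM in EWAT and 0.0477 and 0.0485 CPM in NWAT, so that both EWAT libraries stood above the rest. The 136 counts over EWAT were 116 times (exact 95% interval 20.4 to 4609) the 1 count over SWAT and 64.7 times (17.6 to 540) the 2 counts over NWAT, after scaling, with intervals for counting error only. EdgeR called both differences (edgeR adjusted p = 4.35e-05 for SWAT against EWAT and 6.6e-05 for EWAT against NWAT). The remaining 4 of the 7, the collagenases Mmp1a, Mmp1b and Mmp8 and stromelysin 2 (Mmp10), had too few counts to be tested, at most 2.82 counts in any library.

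Markers of macrophages, the cells for which Mmp12 is named, were highest in EWAT in sum. Their summed level was 18.3 and 27.1 CPM in SWAT, 39.2 and 37.0 CPM in EWAT and 24.1 and 22.9 CPM in NWAT. Of the 9 tested, 5 were lower in SWAT than in EWAT and 6 higher in EWAT than in NWAT, and of the 10 listed none was at 0 in all libraries. Adgre1 (F4/80) had 0.329 and 0.369 CPM in SWAT, 1.12 and 0.989 CPM in EWAT and 0.286 and 0.0485 CPM in NWAT. Lyz2 had 1.24 and 2.25 CPM in SWAT, 8.97 and 8.05 CPM in EWAT and 2.78 and 1.61 CPM in NWAT. C1qa had 0.384 and 0.580 CPM in SWAT, 2.34 and 2.25 CPM in EWAT and 0.668 and 0.340 CPM in NWAT. Cd68 made up the largest part of the sum in every library and overlapped between depots. It had 6.91 and 14.7 CPM in SWAT, 14.7 and 12.3 CPM in EWAT and 11.9 and 13.3 CPM in NWAT. Cd14 was not highest in EWAT, with 5.54 and 4.96 CPM in SWAT, 4.72 and 5.30 CPM in EWAT and 5.34 and 5.43 CPM in NWAT. The part of macrophages in the Mmp12 counts was not tested.

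**Figure D2:**
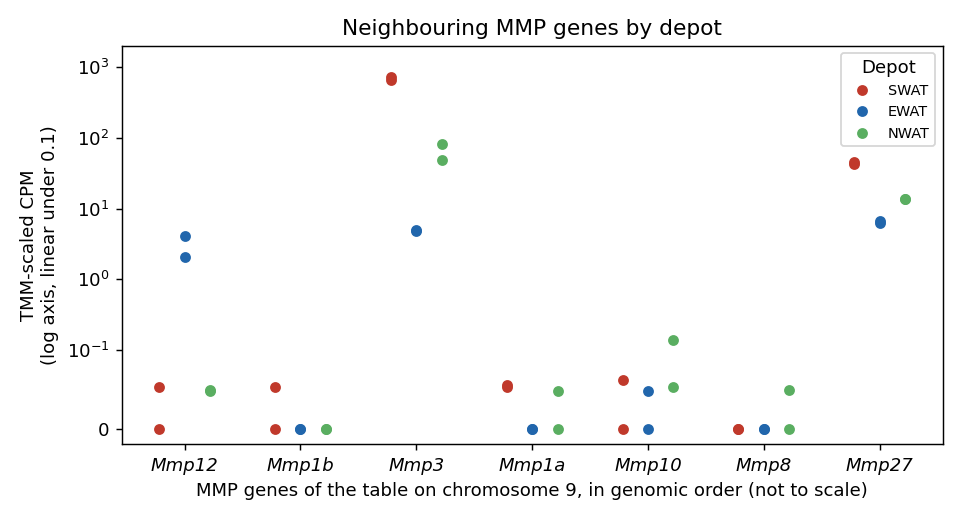
TMM-scaled CPM (log axis, linear under 0.1) of the 7 MMP genes of the table that follow each other on chromosome 9, in genomic order but not to scale, with 1 point per library coloured by depot. Mmp3 and Mmp27 had their highest points in SWAT, Mmp12 had its highest in EWAT, and the 4 genes Mmp1b, Mmp1a, Mmp10 and Mmp8 lay near 0.

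The promoters of the 3 of these 7 genes that differed between depots are shown because neighbouring genes had opposite depots as their highest. Each window runs from 250 bases before to 50 bases after a RefSeq start site (GRCm38.p6, plus strand), and capitals mark matches, on either strand, to the AP-1 motif TGANTCA, the TATA box TATAAA and the ETS motif AGGAAG, which do not overlap here.
Mmp3 (chr9:7445572-7445871): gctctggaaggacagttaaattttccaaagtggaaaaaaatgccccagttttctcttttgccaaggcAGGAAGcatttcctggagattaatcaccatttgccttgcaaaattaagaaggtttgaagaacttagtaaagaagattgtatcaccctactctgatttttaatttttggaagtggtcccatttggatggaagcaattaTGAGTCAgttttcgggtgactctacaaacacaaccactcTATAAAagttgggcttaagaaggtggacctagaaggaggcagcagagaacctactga
Mmp27 (chr9:7571146-7571445): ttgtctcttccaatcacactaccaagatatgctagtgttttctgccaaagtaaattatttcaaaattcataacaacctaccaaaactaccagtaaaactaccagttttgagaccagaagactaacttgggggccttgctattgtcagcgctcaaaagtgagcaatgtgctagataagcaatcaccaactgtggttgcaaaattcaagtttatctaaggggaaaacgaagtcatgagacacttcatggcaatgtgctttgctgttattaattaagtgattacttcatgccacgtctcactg
Mmp12, first start site (chr9:7344147-7344446): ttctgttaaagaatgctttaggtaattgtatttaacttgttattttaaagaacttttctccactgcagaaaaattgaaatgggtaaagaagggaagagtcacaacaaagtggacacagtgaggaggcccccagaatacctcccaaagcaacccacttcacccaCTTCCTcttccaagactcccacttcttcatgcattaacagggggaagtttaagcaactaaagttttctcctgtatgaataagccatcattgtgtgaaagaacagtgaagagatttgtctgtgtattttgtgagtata
Mmp12, second start site (chr9:7347124-7347423): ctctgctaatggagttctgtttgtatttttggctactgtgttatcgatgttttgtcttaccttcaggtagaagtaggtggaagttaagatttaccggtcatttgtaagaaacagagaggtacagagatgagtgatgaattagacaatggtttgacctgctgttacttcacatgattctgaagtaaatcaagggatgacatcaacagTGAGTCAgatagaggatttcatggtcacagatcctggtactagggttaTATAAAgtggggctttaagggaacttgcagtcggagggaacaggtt
The Mmp3 window held an AP-1 match whose first base lay 46 bases before the start site, a TATA box 7 bases before and an ETS match 183 bases before it. Mmp27 held none of the 3 motifs. The first Mmp12 window held an ETS match on the minus strand 87 bases before its start, and the second an AP-1 match 44 bases before and a TATA box at base 5 counted from its start. Over 32851 promoter windows of the same length, 7.81% held the AP-1 motif, 13.6% the TATA box and 35.4% the ETS motif, and of 47 windows of 43 members, 7, 9 and 17 held them. A match is a description of the letters and not of binding.

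Several genes that code for AP-1 subunits were read within a list of 15 immediate early and stress genes that cell dissociation can induce. Of these 15, 10 passed the joint test (66.7%, against 41.7% of all genes). In SWAT against EWAT 7 were higher and 2 lower (36.7% of all genes were called). In SWAT against NWAT 6 were higher and 1 lower (18.9% of all genes). In EWAT against NWAT 2 were higher and none lower (27.3% of all genes). On unfiltered log2(FPKM + 1), 6 passed the joint test. Fosb averaged 9096 CPM in SWAT, 4062 CPM in EWAT and 4673 CPM in NWAT, with log2 fold changes of 1.16 ± 0.15 in SWAT over EWAT and 0.96 ± 0.15 in SWAT over NWAT (edgeR adjusted p = 0.0001 and 0.000775). Jun averaged 4844 CPM in SWAT, 2852 CPM in EWAT and 2817 CPM in NWAT (log2 fold changes of 0.76 ± 0.12 and 0.78 ± 0.12 in the same pairs; edgeR adjusted p = 0.000535 and 0.000852), while the nuclear receptor Nr4a1 averaged 556 CPM in SWAT, 1607 CPM in EWAT and 1520 CPM in NWAT. The AP-1 subunit gene Junb averaged 3550 CPM in SWAT, 3714 CPM in EWAT and 3949 CPM in NWAT (edgeR adjusted p = 0.600 in the joint test). Neither it nor Atf3, whose product can pair with Jun, passed in any pair. Markers of Schwann cells had a summed level of 31.7 and 38.4 CPM in SWAT, 8.15 and 9.38 CPM in EWAT and 21.9 and 17.5 CPM in NWAT, and of the 4 tested, 3 were higher in SWAT than in EWAT, 2 were higher in SWAT than in NWAT and 1 was lower in EWAT than in NWAT. Mbp made up most of this sum, with 21.7 and 22.8 CPM in SWAT, 4.34 and 4.52 CPM in EWAT and 17.7 and 13.9 CPM in NWAT, while Cdh19 had 6.36 and 9.81 CPM in SWAT, 2.55 and 2.53 CPM in EWAT and 1.43 and 2.11 CPM in NWAT. The part of either set in the Mmp3 and Mmp27 differences was not tested.

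Mmp28 (epilysin), on chromosome 11, ran in the same order again, with 13.4 and 18.7 CPM in SWAT, 0.327 and 0.523 CPM in EWAT and 2.47 and 3.28 CPM in NWAT. The depots did not overlap. Log2 fold changes were 5.19 ± 0.30 in SWAT over EWAT, 2.47 ± 0.23 in SWAT over NWAT and -2.71 ± 0.35 in EWAT over NWAT (edgeR adjusted p = 1.28e-07, 1.51e-05 and 0.000143).

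EWAT had the highest levels of 3 further MMPs counted as secreted. Mmp23, an MMP that carries its own membrane anchor in its propeptide, had 106 and 100 CPM in SWAT, 168 and 197 CPM in EWAT and 138 and 125 CPM in NWAT. The depots did not overlap, and the log2 fold changes were -0.82 ± 0.11 in SWAT over EWAT, -0.35 ± 0.11 in SWAT over NWAT and 0.48 ± 0.11 in EWAT over NWAT (edgeR adjusted p = 0.000191, 0.0551 and 0.0093). Mmp11 (stromelysin 3) had 20.6 and 23.8 CPM in SWAT, 33.9 and 36.1 CPM in EWAT and 20.1 and 21.8 CPM in NWAT, so that SWAT and NWAT overlapped below EWAT. Its log2 fold changes were -0.66 ± 0.11 in SWAT over EWAT and 0.74 ± 0.11 in EWAT over NWAT (edgeR adjusted p = 0.000949 and 0.000546). Mmp19, which acts on basement membrane proteins, was lower by -0.38 ± 0.11 in SWAT over EWAT and higher by 0.42 ± 0.11 in EWAT over NWAT (log2; edgeR adjusted p = 0.0231 and 0.0171). Leaving out either SWAT library or EWAT replicate 1 ended the Mmp19 call in SWAT over EWAT (-0.41 to -0.29), and leaving out NWAT replicate 1 ended that in EWAT over NWAT (0.32). Scaled to library size only, the Mmp19 value in SWAT over EWAT was -0.61. The Mmp23 call in EWAT over NWAT ended without NWAT replicate 2 (0.41), while in SWAT over NWAT Mmp23 passed without either EWAT library (-0.34 each) and scaled to library size only (-0.54). Mib2, which overlaps Mmp23, had 31.9 to 45.6 CPM, and Tmem198b, which overlaps Mmp19, 33.7 to 47.5 CPM, so part of the reads of these pairs cannot be told apart.

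Gelatinase B, Mmp9, was close to absent, at 0.494 to 1.05 CPM, and passed in no pair. Mmp21, the fifth secreted MMP gene that was not tested, had at most 2 counts in any library.

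Membrane-type MMPs, which work at the cell surface, differed less. Of 5 tested, 3 passed the joint test, 1 was higher in SWAT against EWAT, 1 higher and 1 lower in SWAT against NWAT, and 1 higher and 1 lower in EWAT against NWAT. Mmp14 (MT1-MMP), a collagenase and the main activator of the Mmp2 precursor, had 1118 and 1217 CPM in SWAT, 861 and 865 CPM in EWAT and 913 and 833 CPM in NWAT. SWAT lay above the other depots, which overlapped. The log2 fold change was 0.44 ± 0.12 in SWAT over EWAT (edgeR adjusted p = 0.0125) and 0.42 ± 0.12 in SWAT over NWAT (edgeR adjusted p = 0.0262). Neither passed when scaled to library size only (0.20 and 0.23) or on FPKM (0.20 and 0.23). The first was lost without SWAT replicate 2 (0.37), and the second without either SWAT or either NWAT library (0.36 to 0.49).

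Mmp16 (MT3-MMP) had 1.54 and 1.43 CPM in SWAT, 2.26 and 2.48 CPM in EWAT and 7.66 and 5.43 CPM in NWAT. Both NWAT libraries lay above the rest, with log2 fold changes of -2.14 ± 0.26 in SWAT over NWAT and -1.47 ± 0.24 in EWAT over NWAT (edgeR adjusted p = 0.000116 and 0.000766). In SWAT over EWAT it stood at -0.67 ± 0.28 and passed only when scaled to library size, at -0.91. Mmp24 (MT5-MMP) had 11.6 and 9.86 CPM in SWAT, 12.2 and 13.8 CPM in EWAT and 9.83 and 7.91 CPM in NWAT. EWAT lay highest, and the lower SWAT library lay just above the higher NWAT library. The log2 fold change of 0.55 ± 0.15 in EWAT over NWAT passed (edgeR adjusted p = 0.0212) but was lost in DESeq2 (0.55) and without EWAT replicate 2 (0.45) or NWAT replicate 2 (0.40). In SWAT over EWAT it stood at -0.28 ± 0.15 and passed when scaled to library size only, at -0.51. Mmp15 and Mmp17 stood at 1.67 to 3.51 CPM and 2.12 to 4.38 CPM and passed in no pair, and Mmp25 had at most 7.89 counts in any library.

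Of the 10 tested ADAM genes with the zinc motif, 3 passed the joint test. In SWAT against EWAT 2 were higher, in SWAT against NWAT 3 were higher, and in EWAT against NWAT 1 was higher and 2 lower; none was lower in SWAT against either depot. Adam33, known as an asthma susceptibility gene in humans and expressed in mesenchymal cells, had 166 and 168 CPM in SWAT, 50.4 and 44.1 CPM in EWAT and 100 and 98.1 CPM in NWAT. The depots were clearly apart. Its log2 fold changes were 1.82 ± 0.11 in SWAT over EWAT, 0.75 ± 0.10 in SWAT over NWAT and -1.07 ± 0.11 in EWAT over NWAT (edgeR adjusted p = 1.39e-07, 0.000327 and 1.88e-05).

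Adam12 and Adam19, the related meltrins of fusing and developing mesenchymal tissues, differed from each other in their order. Adam12 had 305 and 365 CPM in SWAT, 285 and 268 CPM in EWAT and 103 and 102 CPM in NWAT. NWAT lay well below the rest, with log2 fold changes of 1.70 ± 0.12 in SWAT over NWAT and 1.43 ± 0.12 in EWAT over NWAT (edgeR adjusted p = 1.88e-06 and 5.11e-06) and 0.28 ± 0.12 in SWAT over EWAT (edgeR adjusted p = 0.0816). Adam19 had 409 and 368 CPM in SWAT, 191 and 166 CPM in EWAT and 203 and 227 CPM in NWAT. SWAT lay well above the rest, by 1.12 ± 0.12 over EWAT and 0.85 ± 0.12 over NWAT (log2; edgeR adjusted p = 2.43e-05 and 0.000408). In EWAT over NWAT it stood at -0.27 ± 0.12 and passed only without EWAT replicate 1, at -0.38.

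The broadly expressed sheddases were close to level across depots. Adam10, which cuts Notch receptors, had 89.6 and 81.9 CPM in SWAT, 97.0 and 87.8 CPM in EWAT and 104 and 108 CPM in NWAT. NWAT lay highest and SWAT overlapped EWAT, and no pair passed. Adam17, which releases tumour necrosis factor and ligands of the epidermal growth factor receptor, was lower in EWAT than in NWAT by a log2 fold change of -0.33 ± 0.11 (edgeR adjusted p = 0.0424). That call was lost when scaled to library size only (-0.29), on FPKM and with 5 of the 6 libraries left out in turn, the exception being EWAT replicate 1. Without EWAT replicate 2 the value was -0.22. Without EWAT replicate 1, Adam17 passed in SWAT over EWAT, at 0.37. Adam9 had 201 and 183 CPM in SWAT, 175 and 154 CPM in EWAT and 193 and 204 CPM in NWAT, and Adam15 had 192 and 178 CPM in SWAT, 155 and 163 CPM in EWAT and 178 and 168 CPM in NWAT. The depots overlapped or nearly met for both, and neither passed in any pair, though without EWAT replicate 1 Adam9 passed at 0.32 in SWAT over EWAT and at -0.36 in EWAT over NWAT. Adam1a, Adam8 and Adam28 stood at 0.929 to 4.49 CPM and passed in no pair, and the 5 genes Adam1b, Adam21, Adam26a, Adam30 and Adam39 were not tested.

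ADAM genes without the motif code in part for adhesion proteins of the nervous system. Of 5 tested, 4 passed the joint test (80.0%, against 41.7% of all genes). In SWAT against EWAT 2 were higher, and in SWAT against NWAT 1 was higher and 2 lower. In EWAT against NWAT 1 was higher and 1 lower. Shares called were 40.0%, 60.0% and 40.0% in these pairs, against 36.7%, 18.9% and 27.3% of all genes. Adam23, a receptor of the secreted LGI proteins, had 219 and 248 CPM in SWAT, 171 and 172 CPM in EWAT and 108 and 123 CPM in NWAT. The depots did not overlap, in the order SWAT, EWAT, NWAT. Log2 fold changes were 0.45 ± 0.11 in SWAT over EWAT, 1.02 ± 0.11 in SWAT over NWAT and 0.57 ± 0.11 in EWAT over NWAT (edgeR adjusted p = 0.00887, 6.14e-05 and 0.00296). The first was lost when scaled to library size only (0.21), on FPKM and without SWAT replicate 2 (0.36), and the last without NWAT replicate 1 (0.48). Adam22, a further LGI receptor, had 18.5 and 19.5 CPM in SWAT, 8.36 and 8.58 CPM in EWAT and 22.4 and 18.5 CPM in NWAT. EWAT lay lowest, below overlapping SWAT and NWAT, with log2 fold changes of 1.16 ± 0.13 in SWAT over EWAT and -1.27 ± 0.13 in EWAT over NWAT (edgeR adjusted p = 4.05e-05 and 2.84e-05). Adam5 and Adam11 were lower in SWAT than in NWAT, by -0.96 ± 0.22 and -0.92 ± 0.21 (log2; edgeR adjusted p = 0.00932 and 0.00897). Adam5 was lost without SWAT replicate 1 (-0.88) or NWAT replicate 1 (-0.93), and Adam11 without either SWAT library (-0.96 to -0.88) or NWAT replicate 1 (-0.82). Scaled to library size only, both also passed in SWAT over EWAT, at -0.74 and -0.70. Adam4 stood at 0.310 to 0.961 CPM and passed in no pair, and Adam3 and Adam32 were not tested.

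More ADAMTS genes were lower than higher in SWAT. Of 18 tested, 11 passed the joint test, with 2 higher and 7 lower in SWAT against EWAT, 2 higher and 7 lower in SWAT against NWAT, and 3 higher and 2 lower in EWAT against NWAT. Their median log2 fold change was -0.34 in SWAT over EWAT and -0.15 in SWAT over NWAT.

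Adamts4, Adamts8, Adamts15, Adamts1 and Adamts5 code for proteases of proteoglycans such as aggrecan and versican. Adamts4 had 91.6 and 138 CPM in SWAT, 439 and 368 CPM in EWAT and 461 and 594 CPM in NWAT. Both SWAT libraries lay well below the rest, and NWAT lay above EWAT. The log2 fold change was -1.81 ± 0.20 in SWAT over EWAT, -2.20 ± 0.20 in SWAT over NWAT and -0.39 ± 0.20 in EWAT over NWAT (edgeR adjusted p = 9.84e-05, 5.33e-05 and 0.171). Adamts8 was lower in SWAT at a far lower level, with 0.329 and 0.369 CPM in SWAT, 3.18 and 3.55 CPM in EWAT and 2.29 and 3.11 CPM in NWAT. It lies under the level set for naming members and was picked after its values were seen, as the neighbour of Adamts15 on chromosome 9, where 20110 bases separate the genes. Adamts15 had 89.8 and 110 CPM in SWAT, 228 and 229 CPM in EWAT and 103 and 91.7 CPM in NWAT. EWAT stood above overlapping SWAT and NWAT, with log2 fold changes of -1.20 ± 0.12 in SWAT over EWAT and 1.23 ± 0.12 in EWAT over NWAT (edgeR adjusted p = 1.47e-05 and 1.87e-05). Both neighbours were lower in SWAT than in EWAT, Adamts8 by -3.24 ± 0.35 (log2; edgeR adjusted p = 2.72e-05), and in EWAT over NWAT Adamts8 stood at 0.32 ± 0.26 (edgeR adjusted p = 0.386).

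Adamts1 and Adamts5, neighbours on chromosome 16 with 55044 bases between them, had the highest FPKM, a measure per gene length, of the ADAMTS genes on average over the libraries. Adamts1 had 707 and 597 CPM in SWAT, 813 and 749 CPM in EWAT and 1071 and 997 CPM in NWAT. NWAT lay highest and SWAT lowest, without overlap. Log2 fold changes were -0.66 ± 0.13 in SWAT over NWAT and -0.41 ± 0.12 in EWAT over NWAT (edgeR adjusted p = 0.0029 and 0.0318). The call in EWAT over NWAT was lost on FPKM (-0.36) and without EWAT replicate 2 or either NWAT library (-0.45 to -0.35), and in SWAT over EWAT the value of -0.26 ± 0.12 became -0.50 and passed when scaled to library size only. Adamts5 had 896 and 880 CPM in SWAT, 1251 and 1035 CPM in EWAT and 1122 and 858 CPM in NWAT. The NWAT libraries lay on either side of SWAT, and no pair passed. In SWAT over EWAT Adamts5 stood at -0.36 ± 0.15 (edgeR adjusted p = 0.0748) and passed when scaled to library size only (-0.60), in DESeq2 (-0.35), with a replicate block (-0.35) and without EWAT replicate 2 (-0.48).

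Procollagen N-proteinases, which trim fibrillar procollagens, were split. Adamts2 had 924 and 957 CPM in SWAT, 845 and 783 CPM in EWAT and 958 and 875 CPM in NWAT. SWAT and NWAT overlapped above EWAT, and no pair passed. Adamts3, which also activates the lymphatic growth factor VEGF-C, had 2.19 and 2.22 CPM in SWAT, 11.3 and 11.2 CPM in EWAT and 5.34 and 5.87 CPM in NWAT. The order was EWAT, NWAT, SWAT with no overlap, and the log2 fold changes were -2.35 ± 0.18 in SWAT over EWAT, -1.34 ± 0.19 in SWAT over NWAT and 1.01 ± 0.16 in EWAT over NWAT (edgeR adjusted p = 1.21e-06, 0.000342 and 0.000599). Adamts14 was higher in SWAT by 0.59 ± 0.09 over EWAT and 0.37 ± 0.09 over NWAT (log2; edgeR adjusted p = 0.000535 and 0.0175). Scaled to library size only, these became 0.35, which passed, and 0.18, which did not, and the second was also lost without either library of SWAT or NWAT (0.36 to 0.38).

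Adamts19, a gene known for a role in heart valves, had 0.548 and 0.580 CPM in SWAT, 15.1 and 14.5 CPM in EWAT and 6.30 and 5.05 CPM in NWAT. EWAT lay highest and SWAT lowest, with log2 fold changes of -4.70 ± 0.23 in SWAT over EWAT, -3.32 ± 0.25 in SWAT over NWAT and 1.38 ± 0.16 in EWAT over NWAT (edgeR adjusted p = 3.44e-08, 2.94e-06 and 6.62e-05). Adamts6, a close relative of Adamts10, had 2.58 and 3.07 CPM in SWAT, 12.9 and 10.1 CPM in EWAT and 15.4 and 11.9 CPM in NWAT. SWAT lay below overlapping EWAT and NWAT, by log2 fold changes of -2.03 ± 0.20 and -2.28 ± 0.20 (edgeR adjusted p = 1.36e-05 and 1.18e-05). Adamts16 had 66.4 and 51.9 CPM in SWAT, 65.9 and 67.1 CPM in EWAT and 267 and 190 CPM in NWAT. NWAT lay far above overlapping SWAT and EWAT, with log2 fold changes of -1.95 ± 0.17 in SWAT over NWAT and -1.78 ± 0.17 in EWAT over NWAT (edgeR adjusted p = 2.02e-05 and 2.75e-05).

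Adamts17, a close relative of Adamts19, had 5.19 and 4.63 CPM in SWAT, 0.514 and 0.622 CPM in EWAT and 0.553 and 0.395 CPM in NWAT. SWAT lay far above overlapping EWAT and NWAT, at 3.09 ± 0.31 in SWAT over EWAT and 3.34 ± 0.32 in SWAT over NWAT (log2; edgeR adjusted p = 1.43e-05 and 2.2e-05). With a pseudocount of 0.1 on FPKM these values were 2.03 and 2.22 and still passed. Adamts10, whose product binds fibrillin, was lower in SWAT than in EWAT by -0.32 ± 0.10 (log2; edgeR adjusted p = 0.029), a call lost without either SWAT or either NWAT library (-0.36 to -0.28) that stood at -0.55 when scaled to library size only. The remaining ADAMTS genes Adamts7, Adamts9, Adamts12, Adamts13 and Adamts20 passed in no pair; of these, Adamts12 had the highest level, from 224 CPM in EWAT replicate 2 to 489 CPM in SWAT replicate 2. Adamts18 was not tested.

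Markers of mesothelial cells, which cover visceral fat, were lowest in SWAT in sum, as were Adamts4, Adamts6, Adamts8 and Adamts19. Their summed level was 3.73 and 4.85 CPM in SWAT, 19.3 and 27.5 CPM in EWAT and 13.8 and 11.8 CPM in NWAT, and of the 7 tested, 5 were lower and 1 higher in SWAT against EWAT. Mesothelin (Msln) had 0 and 0.0527 CPM in SWAT, 1.26 and 1.30 CPM in EWAT and 0.907 and 0.631 CPM in NWAT. Nkain4 made up most of the EWAT sum, with 10.6 and 18.4 CPM there. It had 0.110 and 0.369 CPM in SWAT and 0.716 and 0.631 CPM in NWAT. Krt19 made up most of the SWAT sum and was higher in SWAT than in EWAT. It had 3.18 and 3.11 CPM in SWAT, 0.607 and 0.809 CPM in EWAT and 6.39 and 6.21 CPM in NWAT. Markers of pericytes and smooth muscle were high in EWAT, as was Adamts15, with a summed level of 53.8 and 72.2 CPM in SWAT, 154 and 157 CPM in EWAT and 44.8 and 39.2 CPM in NWAT, most of it from Des and Myh11 in EWAT. Of the 7 tested, 5 were lower and 2 higher in SWAT against EWAT, and 5 were higher and 1 lower in EWAT against NWAT; Notch3 and Cspg4 were higher in SWAT than in EWAT. The part of these cells in the ADAMTS differences was not tested.

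All 5 ADAMTS-like genes, whose products lack the protease domain and bind microfibrils and other matrix proteins, passed the joint test, and every one differed in SWAT against EWAT and in EWAT against NWAT. In SWAT against EWAT 3 were higher and 2 lower, and in SWAT against NWAT 1 was higher and 1 lower. In EWAT against NWAT 1 was higher and 4 lower. Shares called were 100%, 40.0% and 100% in these pairs, against 36.7%, 18.9% and 27.3% of all genes. The joint test was passed by 41.7% of all genes. Adamtsl1 (punctin) had 294 and 346 CPM in SWAT, 129 and 107 CPM in EWAT and 225 and 223 CPM in NWAT. SWAT lay highest and EWAT lowest, with log2 fold changes of 1.44 ± 0.13 in SWAT over EWAT, 0.51 ± 0.12 in SWAT over NWAT and -0.93 ± 0.13 in EWAT over NWAT (edgeR adjusted p = 4.79e-06, 0.0136 and 0.000225). The SWAT over NWAT call was lost when scaled to library size only (0.32), on FPKM, and without SWAT replicate 2 (0.39) or either NWAT library (0.51 and 0.52). Adamtsl3 had 41.8 and 40.9 CPM in SWAT, 75.5 and 62.2 CPM in EWAT and 138 and 137 CPM in NWAT. It ran the other way, with NWAT highest and SWAT lowest, by -0.74 ± 0.11 in SWAT over EWAT, -1.73 ± 0.11 in SWAT over NWAT and -0.999 ± 0.11 in EWAT over NWAT (log2; edgeR adjusted p = 0.000409, 1.36e-06 and 4.87e-05).

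Adamtsl4, which supports fibrillin fibres in the eye, had 317 and 260 CPM in SWAT, 142 and 152 CPM in EWAT and 347 and 271 CPM in NWAT, and Adamtsl5 had 100 and 96.4 CPM in SWAT, 58.1 and 57.2 CPM in EWAT and 87.3 and 71.6 CPM in NWAT. EWAT lay lowest for both, and SWAT and NWAT overlapped for Adamtsl4 only. For Adamtsl4 the log2 fold change was 0.97 ± 0.14 in SWAT over EWAT and -1.07 ± 0.14 in EWAT over NWAT (edgeR adjusted p = 0.000314 and 0.000214). For Adamtsl5 it was 0.77 ± 0.11 in SWAT over EWAT and -0.46 ± 0.11 in EWAT over NWAT (edgeR adjusted p = 0.000274 and 0.0103). The second of these was lost without NWAT replicate 1 (-0.31). In SWAT over NWAT Adamtsl5 stood at 0.31 ± 0.11 (edgeR adjusted p = 0.0788) and passed without either EWAT library (0.31 and 0.32). Adamtsl2, a regulator of transforming growth factor beta availability, was alone in being higher in EWAT than in both other depots, at -1.61 ± 0.24 in SWAT over EWAT and 1.66 ± 0.23 in EWAT over NWAT (log2; edgeR adjusted p = 0.000286 and 0.000298).

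**Figure D3:**
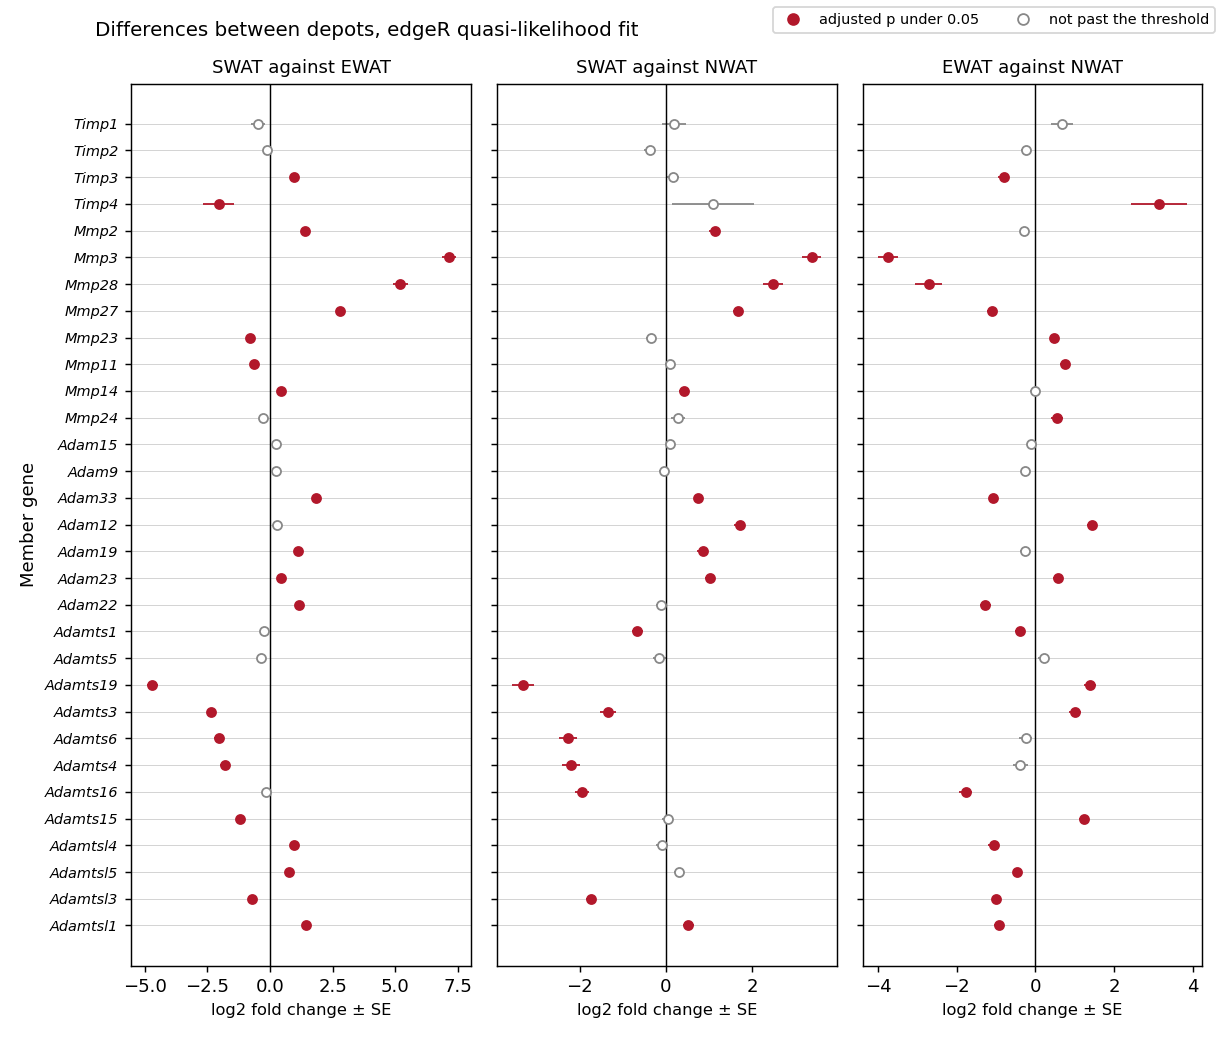
Log2 fold change ± SE of the 31 members described in every library, from the edgeR quasi-likelihood model, in SWAT over EWAT, SWAT over NWAT and EWAT over NWAT; filled points had an adjusted p under 0.05 and each panel has its own axis. Mmp3 reached 7.12 and Adamts19 -4.70 in SWAT over EWAT.

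Set in order of depots, 11 of the 56 tested members were higher in SWAT than in both other depots (6.21% of all genes were). Another 6 were lower (5.88% of all genes). EWAT had 9 members above both others (9.02% of all genes) and 9 below (8.57% of all genes). NWAT had 4 above (3.42% of all genes) and 2 below (2.35% of all genes). Those above in NWAT were Adamts1, Adamts16, Adamtsl3 and Mmp16, and those below were Adam12 and Adam23. Between every pair of depots 9 members differed, namely Mmp3, Mmp27, Mmp28, Adam23, Adam33, Adamtsl1, Adamtsl3, Adamts3 and Adamts19. Of these, Mmp3, Mmp27, Mmp28, Adam33 and Adamtsl1 ran SWAT, NWAT, EWAT from high to low, and Adamts3 and Adamts19 ran the reverse way.

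**Figure D4:**
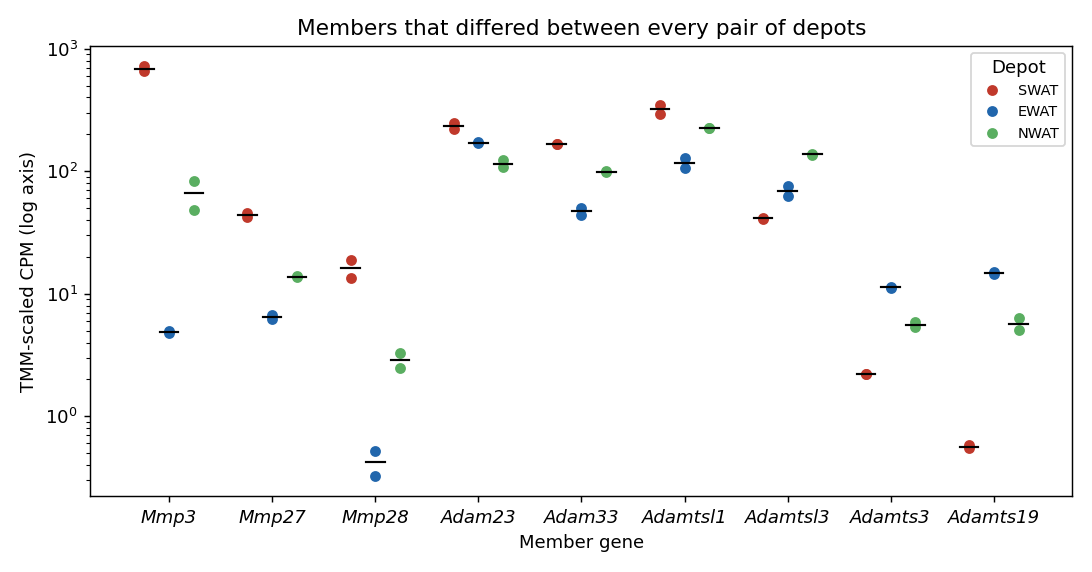
TMM-scaled CPM (log axis) of the 9 members that differed between every pair of depots, with 1 point per library coloured by depot and a bar at the mean of the 2 libraries. The first 7 genes include 6 that were highest in SWAT, and Adamts3 and Adamts19 were lowest there.

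Levels of different members were compared on FPKM, which divides counts by gene length and by library size without TMM, so the shift of all genes given above applies to FPKM differences between depots but not to shares or ratios within a library. Timp2 held 80.2% to 89.5% of the summed TIMP FPKM in every library, Mmp14 97.8% to 98.9% of the membrane-type MMP FPKM and Mmp2 63.6% to 71.5% of the secreted MMP FPKM. The share of Mmp3 in the secreted MMP FPKM was 24.98% and 25.7% in SWAT, 0.503% and 0.456% in EWAT and 4.34% and 7.24% in NWAT. The membrane-anchored Mmp23, counted in this group, held 5.07% and 4.47% in SWAT, 21.2% and 23.5% in EWAT and 15.3% and 13.6% in NWAT. Adamts4 held 4.49% and 6.64% of the ADAMTS FPKM in SWAT, 16.2% and 15.4% in EWAT and 15.5% and 21.2% in NWAT. The leading member of the TIMP, membrane-type MMP and secreted MMP groups was thus the same in every library, while the shares of Mmp3 and Adamts4 differed between SWAT and the other depots.

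Summed TIMP FPKM was 1357 and 1346 in SWAT, 1627 and 1534 in EWAT and 2023 and 1741 in NWAT, and summed secreted MMP FPKM was 1305 and 1435 in SWAT, 584 and 636 in EWAT and 650 and 661 in NWAT. The ratio of summed TIMP FPKM to summed MMP FPKM, membrane types included, was 0.864 and 0.777 in SWAT, 1.97 and 1.73 in EWAT and 2.24 and 1.96 in NWAT. SWAT lay below overlapping EWAT and NWAT. This is a ratio of RNA levels summed over different genes, so a value of 1 marks no balance of inhibitor and enzyme. For the pair Timp2 over Mmp2 the FPKM ratio was 1.33 and 1.16 in SWAT, 3.85 and 3.39 in EWAT and 3.78 and 3.25 in NWAT, so that SWAT lay below overlapping EWAT and NWAT. With 2 libraries a depot, an exact two-sided permutation test of a ratio between depots cannot go below p = 0.333, so none is given. Summed ADAMTS FPKM was 495 and 518 in SWAT, 774 and 700 in EWAT and 841 and 781 in NWAT, and summed ADAMTS-like FPKM was 147 and 141 in SWAT, 93.0 and 93.4 in EWAT and 177 and 149 in NWAT.

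**Figure D5:**
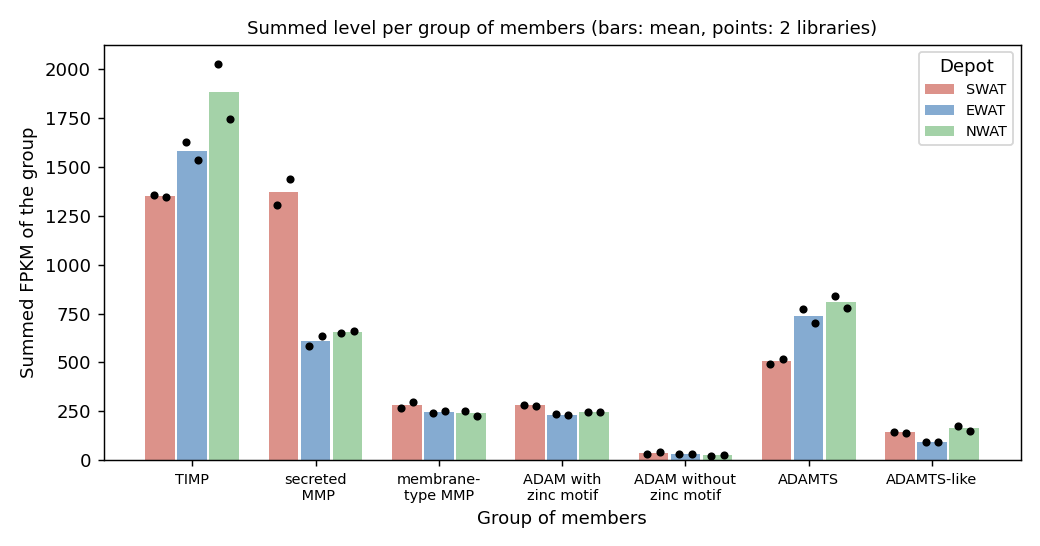
Summed FPKM of each group of members by depot, with bars at the mean and points at the 2 libraries. The secreted MMP sum of SWAT (1305 and 1435) was above those of EWAT (584 and 636) and NWAT (650 and 661), and the ADAMTS sum of SWAT (495 and 518) was below those of EWAT (774 and 700) and NWAT (841 and 781).

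Genes that act with these families were read from fixed lists. Over all genes tested, 41.7% passed the joint test. The share of all genes called was 36.7% in SWAT against EWAT, 18.9% in SWAT against NWAT and 27.3% in EWAT against NWAT. Of 11 tested inhibitors and modulators other than TIMPs, all passed the joint test. In SWAT against EWAT 8 were higher and 2 lower, and in SWAT against NWAT 6 were higher and 2 lower. In EWAT against NWAT 5 were lower. Reck, a membrane-anchored MMP inhibitor, averaged 177 CPM in SWAT, 115 CPM in EWAT and 178 CPM in NWAT, the pattern of Timp3, with log2 fold changes of 0.63 ± 0.11 in SWAT over EWAT and -0.63 ± 0.11 in EWAT over NWAT (edgeR adjusted p = 0.000944 and 0.00125). Pcolce, which enhances procollagen C-proteinases, averaged 1634 CPM in SWAT, 402 CPM in EWAT and 674 CPM in NWAT (2.02 ± 0.14 in SWAT over EWAT and 1.28 ± 0.14 in SWAT over NWAT; edgeR adjusted p = 6.47e-07 and 5.21e-05). Tfpi2, a Kunitz-type protease inhibitor of the matrix, was lower in SWAT, with 35.3 CPM in SWAT, 66.5 CPM in EWAT and 92.4 CPM in NWAT on average.

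Of 9 tested genes of plasminogen activation, a route that can activate MMP precursors, 6 passed the joint test (66.7%, against 41.7% of all genes). In SWAT against EWAT 1 was higher and 3 lower, and in SWAT against NWAT 2 were higher and 2 lower. In EWAT against NWAT 2 were higher and 3 lower. Plau (urokinase) averaged 355 CPM in SWAT, 889 CPM in EWAT and 572 CPM in NWAT. Log2 fold changes of Plau were -1.32 ± 0.12 in SWAT over EWAT, -0.69 ± 0.11 in SWAT over NWAT and 0.64 ± 0.11 in EWAT over NWAT (edgeR adjusted p = 4.29e-06, 0.00129 and 0.00155). Among 8 tested proprotein convertases, which remove the propeptides of many of these enzymes, 6 passed the joint test (75.0%, against 41.7% of all genes). In SWAT against EWAT 4 were higher and 1 lower, and in SWAT against NWAT 4 were higher and 2 lower. In EWAT against NWAT 1 was higher and 2 lower. Pcsk6 (PACE4) averaged 502 CPM in SWAT, 444 CPM in EWAT and 1039 CPM in NWAT, with log2 fold changes of -1.05 ± 0.16 in SWAT over NWAT and -1.23 ± 0.16 in EWAT over NWAT (edgeR adjusted p = 0.000852 and 0.000214).

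Other extracellular metalloproteases all passed the joint test, 9 of 9 (41.7% of all genes did). In SWAT against EWAT 5 were higher and 4 lower, and in SWAT against NWAT 3 were higher and 2 lower. In EWAT against NWAT 2 were higher and 4 lower. Mme (neprilysin) averaged 187 CPM in SWAT, 5.58 CPM in EWAT and 69.5 CPM in NWAT, the depot order of Mmp3, with log2 fold changes of 5.07 ± 0.16, 1.43 ± 0.13 and -3.64 ± 0.16 in SWAT over EWAT, SWAT over NWAT and EWAT over NWAT (edgeR adjusted p = 1.78e-09, 1.71e-05 and 6.03e-08). The tolloid genes Tll1 and Tll2, which code for relatives of the procollagen C-proteinase Bmp1, ran in opposite directions. Tll1 averaged 13.4 CPM in SWAT, 1.65 CPM in EWAT and 5.76 CPM in NWAT. Tll2 averaged 0.434 CPM in SWAT, 7.95 CPM in EWAT and 5.98 CPM in NWAT. Both differed in SWAT against EWAT, by 3.01 ± 0.20 and -4.19 ± 0.35 (log2; edgeR adjusted p = 4.29e-07 and 3.94e-06).

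Of 7 tested partners of Adam17 and Adam10, 2 passed the joint test (28.6%, below the 41.7% of all genes). In SWAT against EWAT 2 were higher and 1 lower, and 1 was higher in each of the other pairs. The joint count was 1 without SWAT replicate 1 or NWAT replicate 2 and 3 without EWAT replicate 2. Rhbdf2 (iRhom2), which carries Adam17 to the cell surface, averaged 2.44 CPM in SWAT, 4.49 CPM in EWAT and 1.68 CPM in NWAT. It was higher in EWAT over NWAT by 1.41 ± 0.27 (log2; edgeR adjusted p = 0.00265). Of 16 tested growth factors and receptors that ADAMs release, 9 passed the joint test (56.25%, against 41.7% of all genes). In SWAT against EWAT 6 were higher and none lower, and in SWAT against NWAT 5 were higher and 1 lower. In EWAT against NWAT 4 were higher and 3 lower. Notch3 averaged 42.5 CPM in SWAT, 13.2 CPM in EWAT and 15.6 CPM in NWAT (1.68 ± 0.17 in SWAT over EWAT and 1.45 ± 0.17 in SWAT over NWAT; edgeR adjusted p = 2.98e-05 and 0.000167), and is also on the pericyte list.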

How the data were processed

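Bulk RNA-seq tables with 1 column per library were used. The authors deposited estimated counts by gene symbol, not normalized according to the file headers and 31.7% to 33.1% not whole, and FPKM values (per the file headers). The submitters' processing notes name GRCm38.p6, Cell Ranger and Seurat but give no version or role. Aligner, counter and strand setting were not given in the sources used here, so reads of a gene and of one that overlaps or faces it cannot be told apart. There were 2 columns per file that matched no label and were not used, and 6 columns were matched to depots and replicates by name.

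Counts were rounded, scaled by TMM and filtered with filterByExpr (count minimum 10, total minimum 15), leaving 13694 genes. With robust dispersions, a quasi-likelihood model was fitted to the 6 libraries in edgeR 4.0.16 (R 4.3.3), with 1 coefficient per depot, 3 residual degrees of freedom and Benjamini-Hochberg adjustment over all genes at 0.05. The SE was obtained as |log2 fold change| over the root of the F statistic. Of repeated symbols the entry with more counts was used. The procedure was also run on counts simulated with the dispersion fitted to these libraries. Such a run cannot show that the calls would hold in other mice.

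Described in every library were all TIMPs, the 2 members of each other group with the highest FPKM, and up to 6 per group that passed the joint test and reached 10 CPM in some depot, by size of change; others that passed a pair and reached 4 CPM are given by fold change. The members, lists and tests were chosen with earlier results of these data known. Members named outside this rule, and examples from lists, were picked after their values were seen. Not every listed or overlapping gene is reported here. Alternatives (16) were DESeq2 1.42.0, other scalings and filters, limma 3.58.1 on log2(FPKM + 1) or log2(FPKM + 0.1) with FPKM of at least 0.5 or no filter, a replicate block, fits of 2 depots and leaving out each library. Coordinates and promoters are RefSeq's (GRCm38.p6), and the zinc motif was searched in the longest reading frames of GENCODE transcripts of GRCm38. Counting intervals cover counting error only.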

Additional observations from a re-analysis of the deposited data

How the results depend on the processing

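No member changed direction past the threshold under any of the 16 alternatives, and 60 of the 78 pairwise calls of members were kept in all of them (24 of 29 in SWAT against EWAT, 18 of 23 in SWAT against NWAT and 18 of 26 in EWAT against NWAT). The count of members lower in SWAT against EWAT was 14, against 25 when scaled to library size only, 22 on log2(FPKM + 1) and 22 on log2(FPKM + 0.1), where the median of all genes moved by -0.24, -0.22 and -0.23. Without the filter, log2(FPKM + 1) called 1 of the partners of Adam17 and Adam10 (against 2) and 6 of the immediate early genes (against 10); the cause was not tested. On log2(FPKM + 1), and for Mmp12, Timp4 and Adamts17 on log2(FPKM + 0.1), fold changes of members of low level were smaller by construction. Leaving out 1 library gave 32 to 39 members in the joint test. In SWAT against EWAT it gave 13 to 18 higher and 11 to 14 lower, in SWAT against NWAT 9 to 14 higher and 9 to 14 lower, and in EWAT against NWAT 9 to 13 higher and 11 to 17 lower, and it gave 1 to 3 sheddase partners in the joint test. DESeq2 called 36 members in the joint test. With a replicate block 37 members passed the joint test, with 15 higher and 16 lower in SWAT against EWAT, 12 and 12 in SWAT against NWAT, and 13 and 14 in EWAT against NWAT. Deviations of equally numbered libraries correlated at 0.000549, 0.0375 and 0.110 over 13694 genes, so the numbers were not taken to pair the samples. The 14 members that were not tested had at most 9 counts in any library, too few for a difference to be detectable at this depth.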

Other observations

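Lysosomal and serine proteases outside the metalloprotease families were read from a list of cathepsins, fibroblast activation protein and cystatins. Of 14 tested, 10 passed the joint test of edgeR at an adjusted p under 0.05 (41.7% of all genes did), with 4 higher and 4 lower in SWAT against EWAT, 7 higher and none lower in SWAT against NWAT, and 6 higher and 2 lower in EWAT against NWAT. Ctsk (cathepsin K), a collagen-degrading cysteine protease, had 319 and 361 CPM in SWAT, 169.9 and 200.04 CPM in EWAT and 132 and 145 CPM in NWAT. SWAT lay highest without overlap, at log2 fold changes of 0.88 ± 0.12 over EWAT and 1.29 ± 0.12 over NWAT (edgeR adjusted p = 0.000188 and 1.9e-05). Lgmn (legumain), an asparaginyl protease of lysosomes, had 90.3 and 86.8 CPM in SWAT, 21.9 and 24.1 CPM in EWAT and 49.8 and 48.1 CPM in NWAT. It ran in the depot order of Mmp3, with log2 fold changes of 1.94 ± 0.10 in SWAT over EWAT, 0.86 ± 0.10 in SWAT over NWAT and -1.09 ± 0.10 in EWAT over NWAT (edgeR adjusted p = 6.26e-08, 7.65e-05 and 1.27e-05). Cst3 (cystatin C), a secreted inhibitor of cysteine proteases, was highest in EWAT, with 195 and 193 CPM in SWAT, 304 and 374 CPM in EWAT and 153 and 169 CPM in NWAT (-0.80 ± 0.12 in SWAT over EWAT and 1.07 ± 0.12 in EWAT over NWAT; edgeR adjusted p = 0.000402 and 6.57e-05). Leaving out 1 library gave 8 to 13 of this list in the joint test.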
